A study of Mus musculus with 12 samples.

Results

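The 10 genes described here encode the liver enzymes that turn cholesterol into bile acids, together with the bile acid receptor FXR (gene Nr1h4) and the repressor SHP (gene Nr0b2). They were chosen by mouse gene symbol, and every probe set whose own gene number in the deposited table was that of a listed gene was taken. This gave 17 probe sets out of 45037 on the array, for 10 genes out of the 17876 that could be named, with 4 genes read by 1 probe set and 6 by several. RNA came from the livers of 6 male Sirt4-knockout (KO) mice and 6 male wild-type (WT) littermates on the 129SV background. All were 7 to 8 months old and were killed after a 16-h fast. Sirt4 encodes a mitochondrial sirtuin. How the knockout allele was made is not stated in the labels. Each animal had 1 Affymetrix Mouse Genome 430 2.0 array, so each value below is 1 liver, and the number of arrays limits the precision.

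Hepatocytes make bile acids by a classical route that opens with Cyp7a1, the rate-limiting cholesterol 7-alpha-hydroxylase, and by an alternative route that uses Cyp27a1 and Cyp7b1. Cyp8b1 directs intermediates to cholic acid, Cyp2c70 makes the muricholic acids of mice, and Baat joins the finished acids to taurine or glycine. Bile acids returning to the liver activate FXR, which induces SHP, and SHP lowers transcription of Cyp7a1 and Cyp8b1 by acting on the receptors LRH-1 and HNF4A that sit on their promoters.

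Promoters of 7 of the 10 genes came from RefSeq (mouse build GRCm38.p6); those of Cyp7a1, Cyp7b1 and Baat were not used here. The 250 bases before the annotated start are shown for the repressor Nr0b2, for its target Cyp8b1, and for Cyp2c70, which varied together with Cyp7b1 across livers. They lie at chr4:133553126-133553375 on the plus strand, chr9:121916306-121916555 on the minus strand and chr19:40187287-40187536 on the minus strand, in that order. Capitals mark matches to the short motifs searched.
Nr0b2: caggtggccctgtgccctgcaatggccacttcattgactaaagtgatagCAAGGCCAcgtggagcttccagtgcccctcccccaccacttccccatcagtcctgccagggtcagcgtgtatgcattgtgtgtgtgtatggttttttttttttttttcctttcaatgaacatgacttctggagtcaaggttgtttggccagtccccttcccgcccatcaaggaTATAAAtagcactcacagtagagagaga
Cyp8b1: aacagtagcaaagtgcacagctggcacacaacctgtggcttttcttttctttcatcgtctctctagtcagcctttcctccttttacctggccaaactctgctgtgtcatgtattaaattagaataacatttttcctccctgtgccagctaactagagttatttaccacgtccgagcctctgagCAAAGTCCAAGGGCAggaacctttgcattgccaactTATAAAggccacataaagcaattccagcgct
Cyp2c70: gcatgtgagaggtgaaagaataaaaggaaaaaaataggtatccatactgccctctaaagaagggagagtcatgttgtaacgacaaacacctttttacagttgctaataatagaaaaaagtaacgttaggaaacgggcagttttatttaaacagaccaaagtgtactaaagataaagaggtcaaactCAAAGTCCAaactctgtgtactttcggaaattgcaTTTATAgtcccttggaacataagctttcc

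The motif CAAGGNCA, the core bound by LRH-1, was found at bases -201 to -194 of Nr0b2 and at bases -60 to -53 of Cyp8b1, counted back from the start. The HNF4A-type motif CAAAGTCCA was found at bases -67 to -59 of Cyp8b1, where it overlaps the LRH-1 core, and at bases -64 to -56 of Cyp2c70. TATAAA was found in all 3 windows, on the opposite strand in Cyp2c70. Both strands of the same 250-base window of 32851 promoters were searched, and 5.53% held CAAGGNCA, 0.384% CAAAGTCCA and 12.4% TATAAA. Of the 7 promoters of the group, 2, 2 and 3 held them, all among the 3 shown. The motifs were chosen after these sequences had been seen, so the shares are a description and test nothing. The inverted repeat AGGTCANTGACCT, a form of the FXR element, was in 0.00609% of the 32851 promoters and in none of the 7 promoters of the group. An exact form this rare would be missing from almost any 7 promoters, so its absence says nothing about FXR elements in these genes. Looser forms and bases farther upstream were not searched. A match describes the letters in this window and is not evidence of a bound site.

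The targeted gene was measured first. Sirt4 had an intensity between 81 and 120.7 in KO livers and between 153.3 and 187 in WT livers, with no overlap. Its log2 fold change on log2(intensity + 50), the scale used throughout, was -0.53 (SE 0.07), with an adjusted p of 0.0534 in limma's fit over all probe sets and an exact permutation p of 0.00216, the smallest that 6 against 6 can give. Median intensity per array lay between 36.6 and 38.69, and the log values of any 2 arrays correlated at 0.9881 to 0.9944. Numbers in the sample titles fall into a 7200 series with 5 KO and 2 WT animals and a 7500 series with 1 KO and 4 WT animals. Their meaning is not stated in the labels, so values within a series are given for some of the genes. Where none is given, the series need not have agreed. Summed hepatocyte markers (8 genes) were 101300 to 106500 in KO livers and 102100 to 107000 in WT livers. Macrophage markers summed to 3776 to 6413 in KO livers and 4450 to 8187 in WT livers, with 14 of 15 below 0 in log2 fold change and 0 past the adjusted test. B and plasma cell markers summed to 271.8 to 337.7 in KO livers and 377.7 to 599.9 in WT livers, without overlap, with 6 of 6 below 0 and an adjusted p of 0.236 at lowest. Sums of 8 pericentral hepatocyte markers were 38330 to 41470 in KO livers and 36380 to 40320 in WT livers, with 8 of 8 genes above 0, and those of 6 periportal markers were 36620 to 40470 in KO livers and 35980 to 46420 in WT livers, with 6 of 6 below 0. Acute phase genes summed to 108600 to 148100 in KO livers and 104900 to 172500 in WT livers, and were highest in WT animals 5 and 6 and KO animal 4. Of all 17876 genes, 6.49% had an unadjusted limma p under 0.05. So did 12 of 15 macrophage, 3 of 6 B and plasma cell and 1 of 20 acute phase genes, all lower in KO livers. Of the 8 pericentral markers 3 did, all higher, and 0 of the hepatocyte and periportal markers did. No marker was at 0 in these lists, and in whole liver fewer cells of a type and less RNA per cell cannot be told apart.

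No difference between the genotypes in the transcripts of the bile acid genes passed the test. Of the 17 probe sets, 0 had an adjusted p under the threshold of 0.05 in limma's fit, as did 0 of all 45037 (0.0%), and adjusted p-values in the group ran between 0.817 and 0.999. At an unadjusted p under 0.05 there were 2 of the 17, against 2651 (5.89%) of all probe sets. One of these, for Cyp27a1, was higher in KO livers, as 1343 (2.98%) of all were. The other, a dim probe set of Cyp7b1, was lower, as 1308 (2.9%) of all were. No probe set of the group separated the 6 KO from the 6 WT livers without overlap, which 103 (0.229%) of all probe sets did. A log2 fold change above 0 was seen in 12 of the 17, against 50.2% of all probe sets. Taking the brightest probe set of each gene, 9 of 10 were above 0, with a median of 0.10, against 50.4% of all 17876 genes. Among the 5858 genes with a mean intensity of at least 200, 60.6% were above 0 and the median was 0.02. The 9 of 10 became 8 after quantile normalization 7 with the title series as a term in the model and 6 without WT animal 4.

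**Figure D1:**
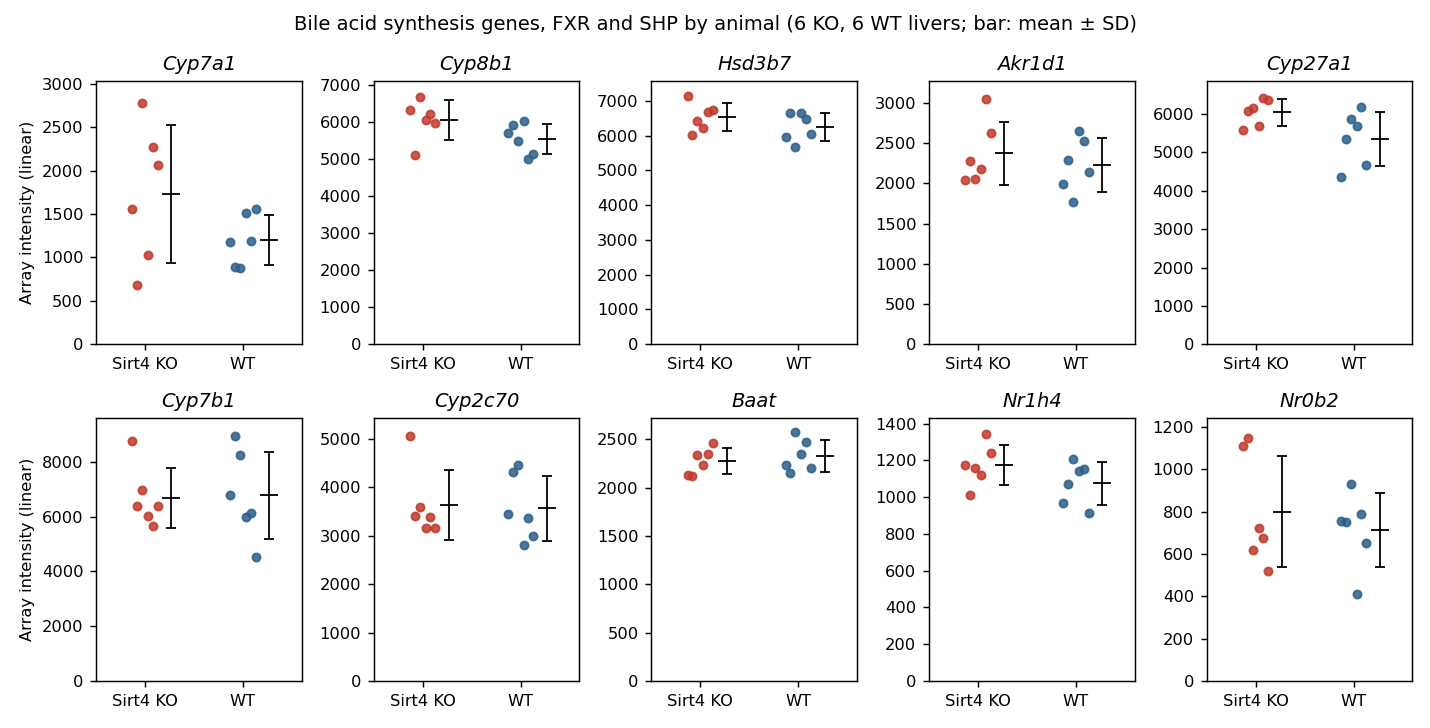
Array intensity (linear scale, arbitrary units) of the brightest probe set of each of the 10 genes, 1 point per liver, for 6 KO and 6 WT animals, with mean ± SD beside the points. The groups overlap in every panel, and relative to the mean KO livers spread furthest apart for Cyp7a1, between 679.4 and 2782.

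**Figure D2:**
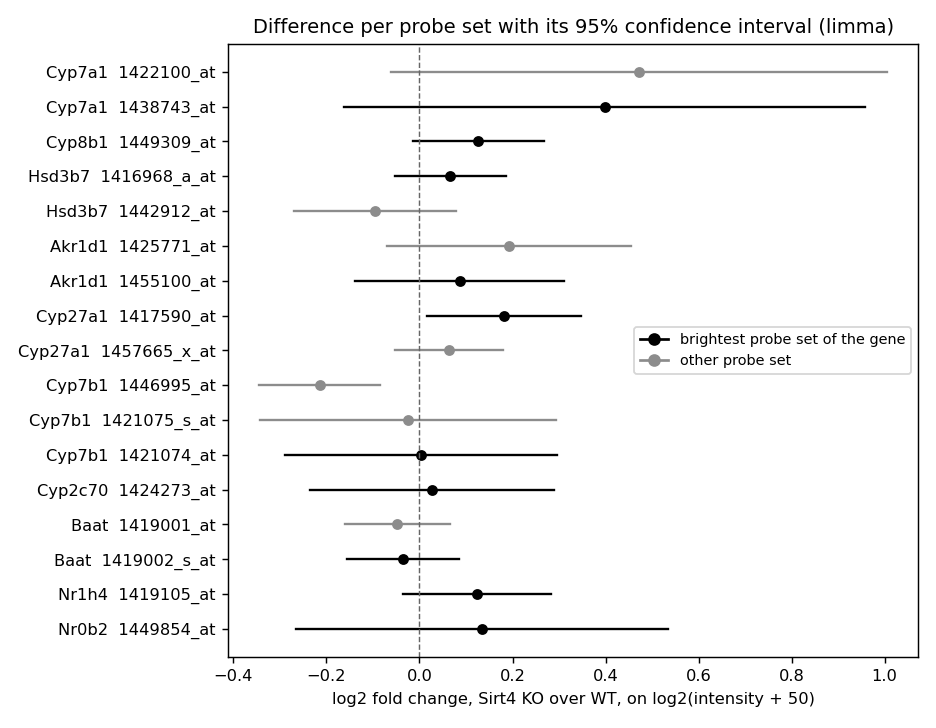
Log2 fold change of KO over WT on log2(intensity + 50) for all 17 probe sets with the 95% confidence interval from limma. Intervals that leave out 0 belong to Cyp27a1 1417590_at and Cyp7b1 1446995_at, both at adjusted p-values above the threshold. Points for the bright Cyp7b1 probe sets, the dim Cyp27a1 1457665_x_at, Cyp2c70, Baat and Nr0b2 changed sign under other settings.

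Cyp7a1 opens the classical pathway and was the gene of the group whose level varied most. Its brighter probe set, 1438743_at, had an intensity of 1559, 679, 2782, 1028, 2271 and 2059 in KO animals 1 to 6. In WT animals 1 to 6 the same probe set had an intensity of 1172, 895, 879, 1515, 1189 and 1561. KO animals 3, 5 and 6 lay above every WT liver, and KO animal 2 lay below every WT liver. The KO mean was 1730 ± 792 and the WT mean 1202 ± 292 (SD, n = 6 each), a log2 fold change of 0.40 (SE 0.26, 95% interval -0.16 to 0.96) with an adjusted p of 0.902. On the log2 scale the SD among KO livers was 0.74 and among WT livers 0.34, a difference that was not tested. Pooled over genotypes, this spread was larger than that of 99.3% of the 9382 probe sets with a mean intensity of at least 200. These were not matched further for brightness.

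The second Cyp7a1 probe set, 1422100_at, ordered the livers in nearly the same way (r = 0.988 over 12 livers). Its KO mean was 1013 ± 475 and its WT mean 659.2 ± 149 (SD, n = 6 each), with a log2 fold change of 0.47 (SE 0.25) and an adjusted p of 0.867. The size of the Cyp7a1 difference hung on single animals. Without KO animal 2 the log2 fold changes of 1438743_at and 1422100_at were 0.63 and 0.68, with adjusted p-values of 0.913 for both. Without KO animal 3 they were 0.24 and 0.31. Within the 7200 series the difference of 1438743_at was 0.51 and within the 7500 series 0.69, the second resting on 1 KO liver. Cyp7a1 is expressed mainly by hepatocytes around the central vein, whose 8 markers summed to a mean of 40080 in KO livers and 38240 in WT livers. The 6 periportal markers summed to a mean of 38250 in KO livers and 40320 in WT livers, and the part of either list in the Cyp7a1 values was not tested. In the authors' deposited table the signed fold changes of the 2 probe sets were 1.44 and 1.54, with unadjusted p-values of 0.174 and 0.132.

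Cyp8b1, the sterol 12-alpha-hydroxylase, had an intensity of 5100 at lowest, 6131 at the median and 6682 at highest in KO livers. In WT livers its lowest, median and highest intensities were 4993, 5587 and 6015. Of the 6 KO livers, 4 lay above the highest WT liver, and KO animal 2, the lowest for Cyp7a1, was also the lowest KO liver for Cyp8b1. Means were 6055 ± 530 in KO livers and 5537 ± 414 in WT livers (SD, n = 6 each), and the log2 fold change of 0.13 (SE 0.07, 95% interval -0.01 to 0.27) had an adjusted p of 0.867. WT animals 5 and 6, which had the highest acute phase genes, were also the lowest WT livers for Cyp8b1. Without them the log2 fold change was 0.06. Both also belong to the 7500 series, so leaving them out cannot tell acute phase from title series. The log2 fold change was 0.06 within the 7200 series and 0.09 with the title series as a term. Within the 7500 series, which has 1 KO liver, it was 0.15. KO animal 4, the highest KO liver in acute phase genes, had a Cyp8b1 intensity of 6055. Over the 12 livers with genotype means removed, the Cyp8b1 level ran against the acute phase score (r = -0.589, rho = -0.741). Neither value passed adjustment over the 20 relations between 2 scores and the 10 genes (permutation test, adjusted p 0.694 for r and 0.157 for rho). No other relation with the acute phase or macrophage score passed either.

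Hsd3b7 and Akr1d1 act on the sterol ring, Hsd3b7 oxidising its 3-beta-hydroxyl group and Akr1d1 reducing its double bond. Hsd3b7 (1416968_a_at) averaged 6539 ± 406 in KO livers and 6243 ± 408 in WT livers (SD, n = 6 each), a log2 fold change of 0.07 (SE 0.06). A further Hsd3b7 probe set, 1442912_at, stayed below the median of every array and was not read as a level of the gene. Akr1d1 was read by a pair of bright probe sets that ordered the livers alike (r = 0.96). The brighter, 1455100_at, averaged 2373 ± 396 in KO livers and 2229 ± 331 in WT livers, and the other, 1425771_at, averaged 1073 ± 218 in KO livers and 930.6 ± 168 in WT livers (SD, n = 6 each). Their log2 fold changes were 0.09 (SE 0.11) and 0.19 (SE 0.12), with adjusted p-values of 0.958 and 0.899. That of 1455100_at was 0.012 without KO animal 5 and 0.024 without WT animal 3, so its size hung on single animals. It was 0.10 within the 7200 series and 0.22 within the 7500 series, which has 1 KO liver.

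Cyp27a1, the mitochondrial sterol 27-hydroxylase of the alternative route, had the smallest p of the bright probe sets in the group. Probe set 1417590_at had an intensity of 5575 at lowest, 6113 at the median and 6432 at highest in KO livers. In WT livers these were 4369, 5529 and 6188, and all 6 KO livers lay above the WT median. Means were 6047 ± 352 in KO livers and 5360 ± 707 in WT livers (SD, n = 6 each), a log2 fold change of 0.18 (SE 0.08, 95% interval 0.02 to 0.35). Limma gave an unadjusted p of 0.0336 and an adjusted p of 0.837, while exact permutation of the 12 animals, two-sided, gave 0.0628. Low values in WT animals 1 and 6, at 4369 and 4679, set the lower edge of the WT group. The log2 fold change was 0.13 without WT animal 1 and 0.14 without WT animal 6. It was 0.26 with the title series as a term, 0.30 within the 7200 series and 0.19 within the 7500 series, which has 1 KO liver. The unadjusted limma p was above 0.05 without WT animal 1 or 6 and without KO animal 2, 3, 5 or 6 in turn. So it was at a floor of 10 and at an offset of 16. Its smallest values were 0.0073 with the title series as a term, 0.00806 within the 7200 series and 0.0097 without WT animal 5. The adjusted p was 0.717 at lowest over the other fits. Another probe set of the gene, 1457665_x_at, had a mean intensity of 8.35 in KO livers and 5.92 in WT livers, far below the array medians.

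Cyp7b1, the oxysterol 7-alpha-hydroxylase, gave unlike readings by probe set. Bright probe set 1421074_at had an intensity of 5647 to 8756 in KO livers and 4528 to 8931 in WT livers. Its mean was 6689 ± 1100 in KO livers and 6770 ± 1610 in WT livers (SD, n = 6 each). Its log2 fold change was 0.003 (95% interval -0.29 to 0.30) and turned negative under several other settings, down to -0.22 within the 7200 series. A companion bright probe set, 1421075_s_at, followed it closely (r = 0.989), with a log2 fold change of -0.03. Dim probe set 1446995_at, with a mean intensity near the array median, had 31.5 ± 6.41 in KO livers and 44.46 ± 6.29 in WT livers (SD, n = 6 each). All 6 KO livers lay below the WT median for it, and the groups overlapped by 1 KO value, 39.29, above the lowest WT value of 36.36. Its log2 fold change was -0.21 (SE 0.06), with an unadjusted p of 0.00299, an exact permutation p of 0.00433 and an adjusted p of 0.817. It did not follow the bright probe sets across livers (r = 0.373 and 0.334).

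Cyp2c70 averaged 3631 ± 723 in KO livers and 3566 ± 678 in WT livers (SD, n = 6 each), a log2 fold change of 0.03 (SE 0.12, adjusted p 0.993). KO animal 1 stood apart at 5070, against 3166 to 3593 in the other 5 KO livers, and without it the log2 fold change was -0.07. WT livers ran between 2814 and 4456. Baat, the amino acid transferase, was among the steadiest genes of the group. Its brighter probe set, 1419002_s_at, averaged 2272 ± 134 in KO livers and 2331 ± 167 in WT livers, and 1419001_at averaged 1409 ± 80.6 in KO livers and 1459 ± 87.4 in WT livers (SD, n = 6 each). Log2 fold changes were -0.04 (95% interval -0.16 to 0.09) and -0.05 (95% interval -0.16 to 0.07).

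The receptor Nr1h4 had an intensity of 1011 at lowest, 1166 at the median and 1342 at highest in KO livers, against 910.8, 1106 and 1209 in WT livers. Its means were 1174 ± 111 in KO livers and 1075 ± 116 in WT livers (SD, n = 6 each), a log2 fold change of 0.12 (SE 0.08, 95% interval -0.04 to 0.28) with an adjusted p of 0.891. Its target Nr0b2 varied more. In KO animals 1 to 6 the intensity of Nr0b2 was 1110, 1148, 621, 725, 677 and 520. In WT animals 1 to 6 it was 757, 752, 933, 410, 788 and 650. KO animals 1 and 2 lay above every WT liver, and the other 4 KO livers lay within the WT range. Means were 800.3 ± 264 in KO livers and 715 ± 175 in WT livers (SD, n = 6 each), and the log2 fold change of 0.13 had an interval of -0.27 to 0.53 and an adjusted p of 0.965. With the title series in the model it was -0.04, within the 7500 series, which has 1 KO liver, -0.33, and without WT animal 4 it was -0.005.

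The levels of Cyp7a1 and its repressor Nr0b2 ran in opposite directions across livers. KO animal 2 had the highest Nr0b2 of all 12 livers and the lowest Cyp7a1, and WT animal 4 had the lowest Nr0b2 and the second highest Cyp7a1 among WT livers. KO animal 1 went another way, with the second highest Nr0b2 and a Cyp7a1 intensity of 1559, within the WT range. After removal of genotype means, Pearson's r was -0.679 and Spearman's rho -0.72 over 12 livers, with unadjusted permutation p-values of 0.0151 and 0.0109. Over the 45 pairs of the 10 genes the adjusted p was 0.114 for r and 0.135 for rho, so the relation did not pass. It was -0.69 among KO livers, -0.747 among WT livers and -0.679 within the 7 livers of the 7200 series, while the 5 livers of the 7500 series are too few for a value. Leaving out KO animals 2 and 3, the farthest in Cyp7a1, gave -0.553, and keeping genotype means gave -0.562 over the 12 livers. For Cyp8b1 and Nr0b2 r was -0.472 over the 12 livers, and for Nr1h4 and Nr0b2 it was -0.258.

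**Figure D3:**
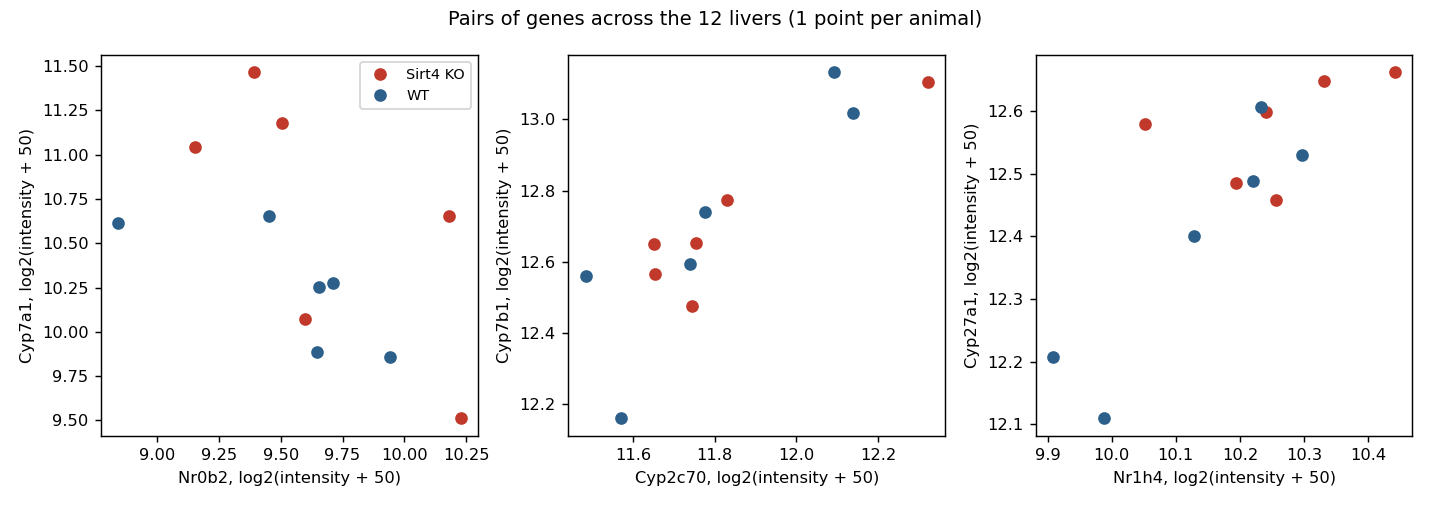
Log2(intensity + 50) of 3 pairs of genes, 1 point per liver, KO and WT in separate colours: Cyp7a1 against Nr0b2, Cyp7b1 against Cyp2c70 and Cyp27a1 against Nr1h4. With genotype means removed the values of r are -0.679, 0.871 and 0.757 over 12 livers, and the middle panel shows 3 livers that stand high on both genes.

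Of the 45 pairs, 28 had an r above 0, 6 had an unadjusted permutation p under 0.05, and 1 passed adjustment by Pearson's r. That pair was Cyp7b1 and Cyp2c70, at r = 0.871 (adjusted p 0.0153) and rho = 0.881 (adjusted p 0.0139). The correlation was 0.917 among KO livers, 0.871 among WT livers, 0.944 within the 7200 series and 0.92 without the 2 livers farthest in Cyp7b1. KO animal 1 and WT animals 2 and 3 stood high on both genes, and over the other 9 livers r was 0.522. Those 3 were picked for being high on both genes, which by itself lowers r. Cyp27a1 and Nr1h4 had r = 0.757 (adjusted p 0.0928) and rho = 0.832 (adjusted p 0.0306), the only further pair to pass by either measure. Its r was 0.471 among KO livers, 0.913 among WT livers and 0.616 without WT animals 1 and 6. Within the 7200 series it was 0.495, and 0.723 with the title series removed as well as genotype.

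Another 4 pairs had an unadjusted p under 0.05. Baat correlated with Nr1h4 (r = 0.745, adjusted p 0.0928) and with Cyp27a1 (r = 0.694, adjusted p 0.114), and within the 7200 series these were 0.542 and 0.199. Cyp2c70 correlated with Nr0b2 (r = 0.683, adjusted p 0.114), at 0.478 within the 7200 series, and the remaining pair was Cyp7a1 and Nr0b2. The classical pathway enzymes Cyp7a1 and Cyp8b1 had r = 0.542 (adjusted p 0.345). That value was 0.841 among KO livers and -0.178 among WT livers. It was 0.848 within the 7200 series and 0.674 with the title series removed as well as genotype. Without KO animals 2 and 3 it was -0.08, so its size depended on those 2 livers. They were left out for being farthest in Cyp7a1, which by itself can lower r. The difference between the genotypes in r was not tested.

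**Figure D4:**
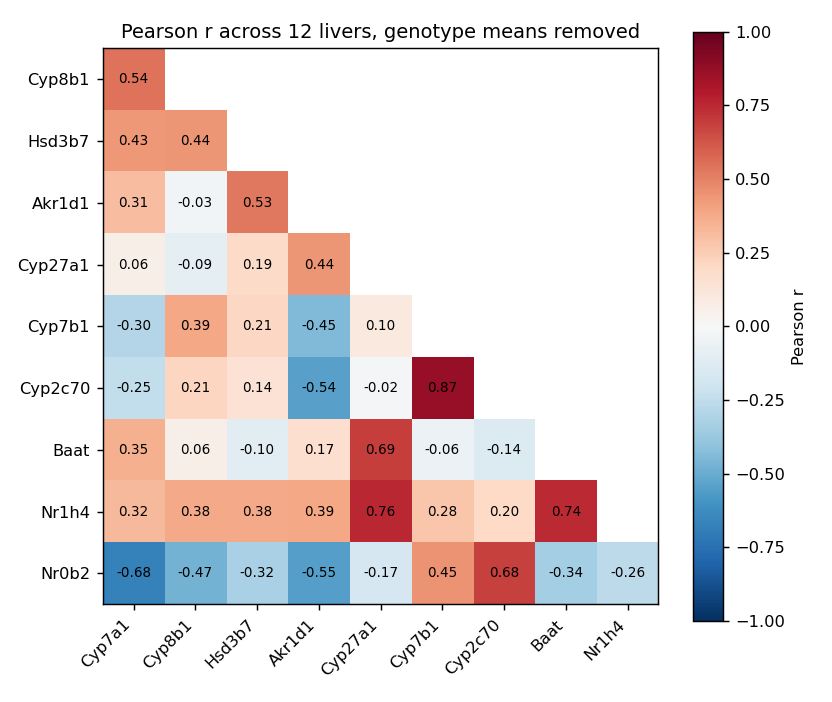
Pearson's r between the 10 genes across 12 livers after removal of genotype means, on log2(intensity + 50), from -1 (blue) to 1 (red). The row of Nr0b2 is below 0 for 7 of the other genes and above 0 for Cyp7b1 and Cyp2c70.

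Genes whose levels were most like those of Cyp7a1 across the 12 livers were Inpp5j (r = 0.83), Clpx (r = 0.82) and Kcnh3 (r = 0.804), out of 5765 named genes with a mean intensity of at least 200 and with genotype means removed. Cyp8b1 was most like B3gnt2 (r = 0.879), Rfx4 (r = 0.875) and Tmem250-ps (r = 0.868). Nr0b2 was most like Hnrnpm (r = 0.876), Gnb1 (r = 0.813) and Rnf39 (r = 0.806). In order of likeness to Nr0b2, Cyp2c70 was at place 38 and Cyp7a1 at place 5746 of the 5765. The 3 highest of so many are a description of these livers, and no p is given.

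Other genes of bile acid synthesis did not pass the test either. Of 15, covering side chain shortening, conjugation and minor hydroxylases, 0 passed the adjusted test, 12 had a log2 fold change above 0 and the median was 0.02. At an unadjusted p under 0.05 there were 2, both higher in KO livers, where 1161 (6.49%) of all 17876 genes were below it. Log2 fold changes were above 0 in 50.4% of all genes and in 60.6% of those with a mean intensity of at least 200. These shares also stand beside the counts of the lists below. Abcd3, a peroxisomal transporter that imports bile acid precursors, averaged 6407 ± 236 in KO livers and 5939 ± 175 in WT livers (SD, n = 6 each), with a log2 fold change of 0.11 and an adjusted p of 0.834. Cyp46a1, the cholesterol 24-hydroxylase best known from brain, was dim at 76.24 ± 28 in KO livers and 46.9 ± 23 in WT livers (SD, n = 6 each), with a log2 fold change of 0.38 and an adjusted p of 0.84. Slc27a5, the bile acid CoA ligase, had a log2 fold change of 0.08.

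Among 18 regulators of Cyp7a1 and Cyp8b1, 0 passed the adjusted test, 13 were above 0 and the median was 0.03. Nr5a2, which encodes LRH-1, had a log2 fold change of 0.08 and Hnf4a one of 0.06. Fgfr4, the liver receptor for the gut hormone FGF15, was the 1 regulator of 18 at an unadjusted p under 0.05, a share close to the 6.49% of all genes. Its brightest probe set averaged 280.2 ± 19.2 in KO livers and 316 ± 27.6 in WT livers (SD, n = 6 each), a log2 fold change of -0.15 with an adjusted p of 0.831. The other 4 Fgfr4 probe sets had log2 fold changes between -0.11 and 0.01. Klb, its co-receptor, had a log2 fold change of 0.14 and an unadjusted p of 0.132.

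FXR targets other than Nr0b2 gave values on both sides of 0. Of 14, 0 passed the adjusted test, 5 were above 0 and 9 below, and the median was -0.09. At an unadjusted p under 0.05, 1 was higher and 3 were lower in KO livers, 4 of 14 beside 6.49% of all genes in either direction. Scarb1, the HDL receptor, averaged 2401 ± 93.2 in KO livers and 2181 ± 92.5 in WT livers (log2 fold change 0.14). Pltp, the phospholipid transfer protein, averaged 552.4 ± 181 in KO livers and 734.2 ± 91.2 in WT livers (-0.42). Slc51a, a subunit of the basolateral bile acid exporter, was dim at 22.78 ± 10.2 in KO livers and 33.86 ± 6.53 in WT livers (-0.21). Apoc2, an activator of lipoprotein lipase, averaged 5725 ± 176 in KO livers and 6267 ± 562 in WT livers (-0.13). Adjusted p-values were 0.831 for Scarb1, Pltp and Slc51a and 0.84 for Apoc2 (SD, n = 6 each).

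Among 16 bile acid and canalicular transporters, 0 passed the adjusted test, 9 were above 0 and the median was 0.04. Some of them, Slc51a and Abcb11 among these, are also in the list of FXR targets, so the 2 lists are not independent. The FXR targets also share Slc27a5 with the synthesis genes, Mafg with the regulators and Fgb with the acute phase genes. Hnf4a is both a listed regulator and a hepatocyte marker. At an unadjusted p under 0.05, 1 was higher in KO livers and 1, Slc51a, was lower, beside 6.49% of all genes in either direction. Abcc3, a basolateral exporter of conjugated bile acids, had the smallest limma p of the 4 lists, though not the smallest exact permutation p, which was 0.00433 for Abcd3, Slc27a2 and Scarb1. It averaged 3692 ± 198 in KO livers and 3121 ± 377 in WT livers (SD, n = 6 each), with all 6 KO livers above the WT median. Its log2 fold change was 0.25 (SE 0.07), with an unadjusted p of 0.0036, an exact permutation p of 0.00866 and an adjusted p of 0.817. Log2 fold changes of the main carriers of the hepatocyte were 0.06 for Slc10a1, which takes bile acids up, and -0.02 for Abcb11, which exports them into bile. The part of the macrophage, B cell and acute phase genes in the values of these lists was not tested.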

How the data were processed

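Per the labels' protocols, liver RNA of 12 mice was purified with Trizol and columns, labelled as biotinylated cRNA and hybridised, 1 array per animal. The authors deposited intensities on a linear scale, brought to a common level. The submitters' processing notes name RMA without a version, but the values reach 0 in 689 cells of 514 probe sets, which RMA output does not, so how they were made is not settled. The authors' deposited table adds a signed fold change, which is a score, and unadjusted p-values. Its block of gene symbols matches the rows as placed on 1 row, so a probe set's gene was read off the gene number (36239 cases) or accession (60 cases) of its row and named from a RefSeq table. A further 1261 probe sets had several gene numbers and 7477 no match. The files give no genome build.

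The test was limma's lmFit and eBayes (limma 3.58.1, R 4.3.3) on log2(intensity + 50), without covariates, over all 45037 probe sets, with Benjamini-Hochberg adjustment, two-sided, and a threshold of 0.05. Fold changes on this scale understate those of dim genes. Exact permutation used all arrangements of the 12 animals, and correlations used 100000 permutations and the brightest probe set of each gene. Replicate numbers follow record order and pair no animals. The 10 genes and all lists were chosen with earlier results of these data known, and the promoter motifs were chosen after the sequences had been seen. Text names all 10 genes, Sirt4, up to 4 genes of each list at an unadjusted p under 0.05, and the 3 genes most like Cyp7a1, Cyp8b1 and Nr0b2; Nr5a2, Hnf4a, Klb, Slc27a5, Slc27a2, Slc10a1 and Abcb11 were added after their values had been seen. Offsets, normalizations, filters, title series and left-out animals were tried as alternatives, 25 fits in all.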

Additional observations from a re-analysis of the deposited data

Results flagged for a closer look

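Cyp2c70 had 1 KO liver far from the other 5. KO animal 1 had an intensity of 5070, against 3166 to 3593 in the others, and its gap to the nearest took 0.732 of the group's range, above Dixon's 95% critical value for 6 samples. Of the 36 groups tested, 1 was picked out in this way, and chance alone picks about 1 in 20. The same liver also had the highest Cyp7b1 of the KO group, at 8756. Its cause was not tested.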

How the results depend on the processing

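No paired analysis was possible because the replicate numbers only follow record order and the labels tie no KO animal to a WT littermate. None of the 17 probe sets passed adjustment under any of the 25 other fits. Over all probe sets the count that passed was 1 after quantile normalization and 1 with 1 probe set per gene, both times Sirt4 (log2 fold change -0.53), and 0 to 1 with an animal left out (1 without WT animal 1, a probe set of several genes). The count at an unadjusted p under 0.05 was 1326 with a mean intensity of at least 50, 1118 with 1 probe set per gene and 1746 in the 7500 series, where fewer probe sets or animals were tested, and 2207 to 3078 with an animal left out. Of the group's probe sets, 1 was at an unadjusted p under 0.05 with an offset of 16, a floor of 10, the filter at 50 or 1 probe set per gene, and 1 to 5 with an animal left out, the 5 without KO animal 2. Pairs of genes that passed numbered 2 when genotype means were kept. Cyp7a1, Cyp8b1, Akr1d1, Nr1h4, the bright probe sets of Hsd3b7 and Cyp27a1 and the dim ones of Hsd3b7 and Cyp7b1 kept their sign in every fit. Signs turned for the rest, and the cause was not tested. With the title series as a term, log2 fold changes were -0.12 for Cyp7b1 1421074_at, -0.076 for Cyp2c70, 0.030 for Baat 1419002_s_at and -0.037 for Nr0b2. In the 7200 series they were -0.22 for Cyp7b1 1421074_at, -0.073 for Cyp2c70, 0.027 for Baat 1419002_s_at and -0.0072 for Cyp27a1 1457665_x_at. In the 7500 series, added after seeing the data, they were -0.081 for Cyp2c70, 0.027 and 0.036 for Baat 1419001_at and 1419002_s_at, and -0.33 for Nr0b2. Without WT animals 5 and 6, Cyp7b1 1421074_at was -0.16 and Cyp2c70 -0.046; without KO animal 4 as well, added after seeing the data, -0.13 and -0.012. Quantile normalization gave -0.013 for Cyp7b1 1421074_at, and a floor of 10 gave -0.062 for Cyp27a1 1457665_x_at. With an animal left out, the range was -0.14 to 0.082 for Cyp7b1 1421075_s_at (-0.18 without WT animals 5 and 6 and KO animal 4), -0.11 to 0.089 for 1421074_at, -0.073 to 0.094 for Cyp2c70 and -0.0054 to 0.24 for Nr0b2. Probe sets near or under the array median have intensities that bound no level, since detection calls were not used here.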
